A study of Homo sapiens with 36 samples.

Results

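The genes of glycolysis and of the hypoxia response were followed in a human breast cancer line of the triple-negative type, MDA-MB-231, exposed to SHP1705, to a proteasome inhibitor or to the pair of them. They were a list of 40 genes among the 54583 rows of each of 3 count tables, and all 40 were found in every table. By role they were 16 glycolytic enzymes, 6 genes of glucose and lactate transport and of flux control, 17 other targets of the hypoxia-inducible factor HIF, and HIF1A itself. SHP1705 stabilizes cryptochrome proteins, the repressors of the circadian clock, and MG132 and carfilzomib block the proteasome. The 36 polyA RNA-seq libraries formed 3 sets of 12: an MG132 set treated for 8 h, and carfilzomib sets treated for 8 h or 24 h. Every set held 4 groups of 3 libraries: DMSO alone, 10 µM SHP1705, the inhibitor alone (100 nM MG132, or 10 nM carfilzomib), and SHP1705 with the inhibitor at those doses, called the combination here. All groups received DMSO as the drug carrier and were grown in RPMI-1640 with serum. All values come from 1 cell line. No label described a low-oxygen group.

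Glycolysis splits glucose to pyruvate, and lactate dehydrogenase turns pyruvate to lactate when it is not oxidized in mitochondria. HIF is a pair of proteins, an oxygen-labile alpha subunit such as HIF1A and the stable partner ARNT, and it binds short DNA sites with the core ACGTG or GCGTG. Prolyl hydroxylases of the EGLN family mark the alpha subunit in the presence of oxygen, so that the VHL ubiquitin ligase sends it to the proteasome. Its targets include glucose transporters, most glycolytic enzymes, growth factors for blood vessels, carbonic anhydrases and mitophagy receptors, and tumour cells often express many of them.

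MG132-set libraries held 34200000 to 39300000 counts each, 24 h carfilzomib-set libraries 18900000 to 34000000, and the 8 h ones 17800000 to 27700000. Levels are CPM, read counts scaled to a common library size, and differences are log2 fold changes with their standard error (SE) from the quasi-likelihood test of edgeR, adjusted by Benjamini-Hochberg over all genes tested. An adjusted p under 0.05 is a call. Nothing in the labels says that the libraries of a group came from separate cultures, so p-values measure the spread between libraries, which may be technical. Of 6 markers known to be high in the line, VIM, CD44, MSN, AXL and CAV1 were high, and the 6 summed to 3674 CPM or more in every library. The sixth, SPARC, a matrix protein gene that fibroblasts also express, was low, at 2 to 16 counts a library in the carfilzomib set at 24 h, 21 to 105 at 8 h and 56 to 660 in the MG132 set. The 5 markers listed as low in the line (ESR1, PGR, ERBB2, CDH1 and EPCAM) summed to 49.24 to 110.7 CPM a library, mostly ERBB2 and EPCAM. The 6 luminal markers summed to 631.8 to 1723 CPM, mostly KRT8 and KRT18. In the MG132 set and the carfilzomib set at 24 h, PER3, a clock gene repressed by cryptochrome, was lower in all libraries given SHP1705 than in any without it. In the carfilzomib set at 8 h the readouts went against the labels, as described with its values. In the MG132 set 7 libraries had over 100 counts of the fibroblast gene POSTN: the 3 combination libraries, and 4 outside the combination (SHP1705 libraries 2 and 3, MG132 libraries 1 and 3). In the combination POSTN had 2876, 6865 and 8040 counts, and with DMSO 10, 4 and 4. The 7 fibroblast markers summed to 17.06 to 17.83 CPM with DMSO, 16.55 to 52.05 with SHP1705, 17.4 to 192.9 with MG132 and 119.7 to 266.6 in the combination. At 24 h they summed to 17.31 to 24.4 CPM in all 12 libraries, and DCN was at 0 throughout. In MG132 library 3 the sum was mostly POSTN, with 6972 counts. COL1A2 had 314 counts there, LUM 46, PDGFRB 103 and DCN 4. With DMSO, COL1A2 had 261, 287 and 294 counts, LUM 57, 31 and 35, PDGFRB 135, 104 and 111, and DCN 3, 3 and 0. COL1A1 was higher in that library, at 312 counts against 223, 187 and 170. SPARC was higher there too, at 551 counts against 107, 138 and 127 with DMSO, and it had 345, 621 and 660 counts in the combination. All combination libraries and no DMSO library had over 100 POSTN counts, so the POSTN signal and the combination cannot be told apart. The part of that signal in the other results of the MG132 set was not tested. For SHP1705 alone a count without those 4 libraries is given.

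Promoter windows of 250 bases before each RefSeq start (GRCh38.p14) were found for 36 of the 40 genes, 67 windows in all, and not for NDRG1, VEGFA, BNIP3L and SLC2A3. The letters ACGTG and GCGTG were searched on both strands; ACGTG is also part of CACGTG, the E-box bound by the clock activators. Either core stood in 83.3% of 18 windows of the other HIF targets, 63.6% of 11 windows of the transport and flux genes, 52.8% of 36 windows of the glycolytic enzymes and 43.2% of 35116 windows of all genes. ACGTG alone stood in 55.6% of the windows of the other HIF targets, 38.9% of those of the glycolytic enzymes and 18.5% of all windows. CACGTG stood in 11.1%, 13.9% and 6.3%, in the same order. These shares are of windows, not of genes, and genes with several starts have several windows, some overlapping. Among the enzymes, HK1 and PFKM had the most windows, nearly all without a core. By gene, PGAM1 and PKM alone lacked either core among the 16 enzymes. Among the 14 other HIF targets with a window, P4HA2 and EGLN3 alone lacked either core. By gene, these lists thus hardly differed in either core. A match is a run of letters, not a bound site. The windows printed next belong to genes on which the results turn. CA9 (chr9:35673678-35673927, plus strand), BNIP3 (chr10:131981924-131982173, minus strand), P4HA1 (chr10:73096867-73097116, minus strand), PGK1 (chrX:78103998-78104247, plus strand) and PFKFB4 (chr3:48556804-48557053, minus strand) were among the called rises with SHP1705 at 24 h. SLC2A1 (chr1:42958869-42959118, minus strand) moved in opposite directions under different treatments, and ADM (chr11:10304823-10305072, plus strand) and ANGPTL4 (chr19:8363905-8364154, plus strand) moved far in the MG132 combination. Capitals mark each core on either strand, and each sequence runs 5′ to 3′ on the gene's strand.
CA9: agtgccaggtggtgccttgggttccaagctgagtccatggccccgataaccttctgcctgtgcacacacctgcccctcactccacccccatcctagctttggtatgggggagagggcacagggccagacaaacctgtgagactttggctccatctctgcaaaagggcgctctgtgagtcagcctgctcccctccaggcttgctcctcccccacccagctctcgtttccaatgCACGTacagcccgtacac
BNIP3: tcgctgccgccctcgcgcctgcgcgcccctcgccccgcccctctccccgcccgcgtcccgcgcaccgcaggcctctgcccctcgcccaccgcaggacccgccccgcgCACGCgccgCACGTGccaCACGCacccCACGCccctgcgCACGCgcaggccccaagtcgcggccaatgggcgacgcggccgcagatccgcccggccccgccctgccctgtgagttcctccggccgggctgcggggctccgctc
P4HA1: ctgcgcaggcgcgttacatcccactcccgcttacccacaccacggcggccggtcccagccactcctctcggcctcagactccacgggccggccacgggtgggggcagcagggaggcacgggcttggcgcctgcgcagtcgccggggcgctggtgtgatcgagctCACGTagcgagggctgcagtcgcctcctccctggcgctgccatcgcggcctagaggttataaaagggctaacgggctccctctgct
PGK1: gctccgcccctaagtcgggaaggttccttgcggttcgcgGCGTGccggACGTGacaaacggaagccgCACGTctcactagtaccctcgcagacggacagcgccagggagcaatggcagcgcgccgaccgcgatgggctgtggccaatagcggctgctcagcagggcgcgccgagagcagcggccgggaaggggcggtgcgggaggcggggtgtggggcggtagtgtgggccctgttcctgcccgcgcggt
PFKFB4: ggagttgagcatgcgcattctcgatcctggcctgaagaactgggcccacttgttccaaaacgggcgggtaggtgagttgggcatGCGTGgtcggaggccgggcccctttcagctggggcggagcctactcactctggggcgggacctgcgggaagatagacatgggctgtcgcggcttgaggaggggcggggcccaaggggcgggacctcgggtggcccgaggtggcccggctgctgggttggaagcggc
SLC2A1: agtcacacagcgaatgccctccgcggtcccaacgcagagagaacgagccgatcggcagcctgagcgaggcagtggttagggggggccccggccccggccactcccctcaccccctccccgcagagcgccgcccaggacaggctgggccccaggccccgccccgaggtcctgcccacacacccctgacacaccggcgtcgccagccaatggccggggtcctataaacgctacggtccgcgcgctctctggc
ADM: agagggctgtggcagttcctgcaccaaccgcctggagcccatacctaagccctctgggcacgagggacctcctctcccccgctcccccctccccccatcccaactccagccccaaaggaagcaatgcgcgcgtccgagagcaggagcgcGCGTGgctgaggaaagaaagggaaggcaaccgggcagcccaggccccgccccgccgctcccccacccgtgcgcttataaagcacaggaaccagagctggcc
ANGPTL4: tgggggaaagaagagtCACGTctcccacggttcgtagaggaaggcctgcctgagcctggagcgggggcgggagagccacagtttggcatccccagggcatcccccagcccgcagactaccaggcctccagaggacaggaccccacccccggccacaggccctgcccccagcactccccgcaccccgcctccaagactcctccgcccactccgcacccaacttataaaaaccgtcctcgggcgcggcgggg
The window of BNIP3 held 6 cores, some overlapping on the 2 strands. That of PGK1 held 3 cores, the windows of CA9, P4HA1, PFKFB4, ADM and ANGPTL4 held 1 each, and the window of SLC2A1 held 0. The CA9 core began at position -18 from the start and that of P4HA1 at -86.

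With SHP1705 alone for 24 h, 19 of the 39 members tested rose and 0 fell, against 4.46% of all 16183 genes called and 1.95% called higher. ANKRD37 did not pass the filter on low counts in this set and was not tested. The 19 were 11 of 16 other HIF targets, 3 of 6 transport and flux genes and 5 of 16 glycolytic enzymes. Every called member was higher in all 3 SHP1705 libraries than in any DMSO library. The calls came from these same libraries, so this is not further support, and the share over all genes was not counted. Because these are bulk samples, a change in the share of some cells and a change in RNA per cell cannot be told apart.

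CA9, the cell-surface carbonic anhydrase IX that handles acid at the membrane, was at 16.4, 15.2 and 16.5 CPM with DMSO and at 28.2, 28.6 and 27.6 CPM with SHP1705. The groups did not overlap, and the log2 fold change was 0.82 ± 0.10 (SE; adjusted p = 1.58e-05), the largest among the members called here. The mitophagy receptor gene BNIP3 rose from 146, 145 and 137 to 188, 181 and 203 CPM (0.42 ± 0.06, adjusted p = 2.68e-05). Its relative BNIP3L, which also targets mitochondria for autophagy, rose by 0.44 ± 0.07 on the log2 scale (adjusted p = 0.000253). P4HA1, a catalytic subunit of collagen prolyl hydroxylase, was at 105, 104 and 107 CPM with DMSO and 136, 140.1 and 140.1 CPM with SHP1705 (0.40 ± 0.05, adjusted p = 1.55e-05). DDIT4, an inhibitor of mTORC1 signalling at chr10:72273924-72276036, rose from 254, 261 and 259 to 353, 351 and 339.6 CPM (0.43 ± 0.05, adjusted p = 1.07e-05). For VEGFA, the angiogenic growth factor at chr6:43770211-43786487, the DMSO libraries held 276, 284 and 284 CPM and the SHP1705 libraries 367, 335 and 367 CPM (0.34 ± 0.05, adjusted p = 3.9e-05). NDRG1, a stress-response gene long used as a hypoxia marker, went from 485, 491 and 493 to 604, 604 and 590.3 CPM (0.29 ± 0.04). INSIG2, which holds the sterol sensor SCAP in the endoplasmic reticulum, rose by 0.48 ± 0.08. Smaller calls were KDM3A, a histone demethylase, at 0.30 ± 0.07, the oxygen sensor EGLN3 at 0.28 ± 0.08 and P4HA2 at 0.25 ± 0.06. The EGLN3 call was lost on leaving out any 1 of the 6 libraries, the KDM3A call without DMSO library 1 or SHP1705 library 3, and the P4HA2 call without DMSO library 2.

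**Figure D1:**
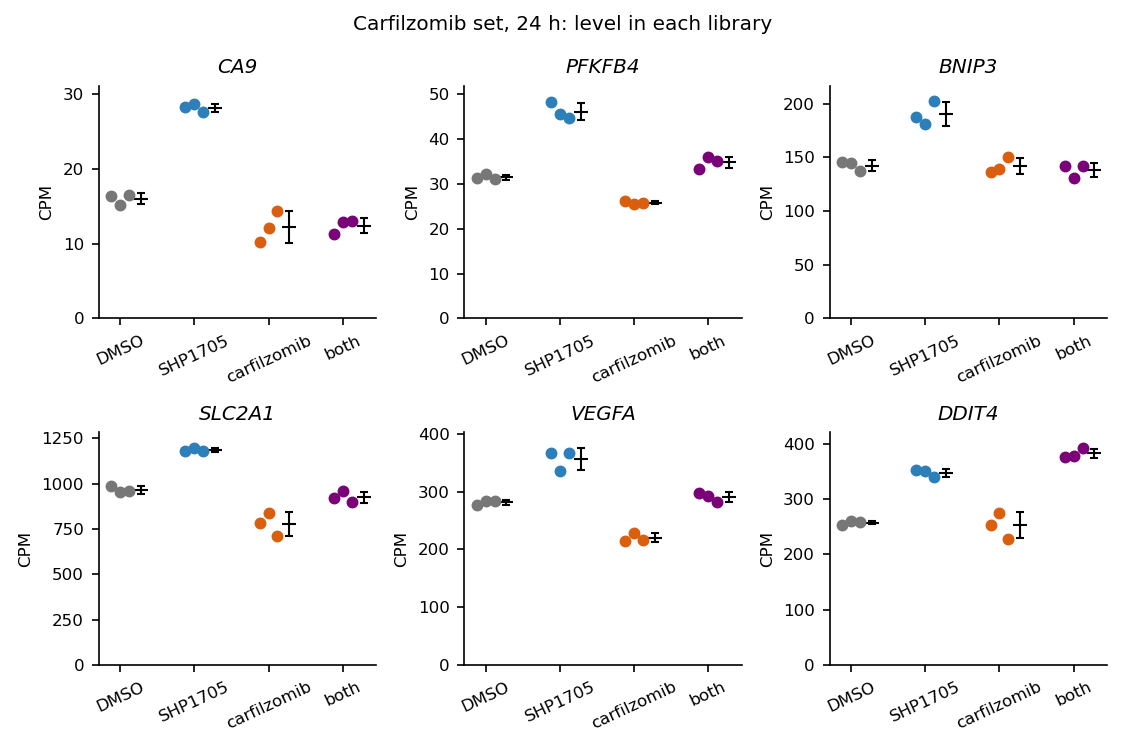
Levels in CPM of 6 members in each library of the carfilzomib set at 24 h; points are libraries, horizontal ticks the group means and bars 1 SD (n = 3), on linear axes from 0. CA9 sat at 28.2, 28.6 and 27.6 CPM in the SHP1705 libraries against 16.4, 15.2 and 16.5 CPM with DMSO, and below the DMSO values with carfilzomib and in the combination.

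Among the transport and flux genes at 24 h, PFKFB4, which makes the phosphofructokinase activator fructose 2,6-bisphosphate, was at 31.4, 32.2 and 31.04 CPM with DMSO and 48.3, 45.7 and 44.6 CPM with SHP1705. Its groups were well apart (0.55 ± 0.06, adjusted p = 6.3e-06), the lowest p of the list in this comparison. SLC2A1, the main glucose importer GLUT1, rose from 989, 951 and 957 to 1181, 1197 and 1179 CPM (0.30 ± 0.05, adjusted p = 0.000328), and the second importer SLC2A3 rose by 0.38 ± 0.06. The lactate exporter SLC16A3 (0.06 ± 0.07), PFKFB3 (0.02 ± 0.05) and PDK1, the kinase that shuts pyruvate dehydrogenase (0.24 ± 0.08), did not pass the test. PFKFB3 was at 93.5, 89.2 and 88.04 CPM with DMSO and 93.1, 96.1 and 85.5 CPM with SHP1705. PDK1 was at 34.2, 38.05 and 35.7 CPM with DMSO and at 44.8, 37.6 and 45.3 CPM with SHP1705, so the groups overlap. PDK1 passed when no low-count filter was used and when SHP1705 library 2 was left out.

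The 5 enzymes that rose at 24 h all act on the triose stage of glycolysis, below the split of the sugar. PGK1, the first ATP-forming step, was at 1019.9, 1031 and 1046 CPM with DMSO and 1239, 1274 and 1276 CPM with SHP1705 (0.29 ± 0.04, adjusted p = 2.48e-05). TPI1 changed by 0.19 ± 0.04, ENO1 by 0.16 ± 0.04 and PGAM1 by 0.15 ± 0.04, all small but outside the DMSO range. ENO2, the neuronal enolase, rose from 162, 160.3 and 164 to 179.6, 185 and 205 CPM (0.23 ± 0.05); its call was lost without DMSO library 2 or SHP1705 library 3, and that of PGAM1 without DMSO library 2 or 3 or SHP1705 library 2. The aldolase gene ALDOC, at low counts, held 5.70, 5.50 and 6.30 CPM with DMSO and 7.17, 7.91 and 10.5 CPM with SHP1705, and 0.55 ± 0.16 missed the threshold (adjusted p = 0.0543) but passed without SHP1705 library 1. HK2, the inducible hexokinase, was at 137, 140.1 and 127 CPM with DMSO and 138, 136 and 123 CPM with SHP1705, which overlap (-0.03 ± 0.06). LDHA at chr11:18394563-18408425, the lactate dehydrogenase subunit and a classical HIF target, was at 2062, 2031 and 2205 CPM with DMSO and 2086, 2188 and 2258 CPM with SHP1705, which overlap (0.05 ± 0.04, adjusted p = 0.601). GAPDH gave 0.06 ± 0.03 and PKM 0.11 ± 0.03. HIF1A itself was at 141, 135 and 144 CPM with DMSO and 144, 145 and 152 CPM with SHP1705 (0.07 ± 0.06, adjusted p = 0.597).

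With SHP1705 alone for 8 h, in the MG132 set, 10 of 40 members rose and 4 fell, against 7.53% of 16591 genes called. Of the calls, 7 were other HIF targets, 4 were transport and flux genes, 2 were enzymes and 1 was HIF1A. VEGFA moved most clearly, from 92.8, 86.2 and 93.3 CPM with DMSO to 119, 117 and 119 CPM with SHP1705 (0.38 ± 0.04, adjusted p = 5.84e-06). DDIT4 was at 127, 139 and 123 CPM with DMSO and at 173, 186 and 171 CPM with SHP1705 (0.45 ± 0.05, adjusted p = 3.94e-05). In neither gene did the groups overlap. PFKFB4 rose from 12.5, 12.98 and 12.4 to 18.6, 16.4 and 16.8 CPM (0.45 ± 0.09, adjusted p = 0.00361). The glucose importers followed, SLC2A1 from 711, 677 and 699 to 781, 782 and 778 CPM (0.17 ± 0.03) and SLC2A3 by 0.29 ± 0.05. HIF1A, the alpha subunit, was at 263, 247 and 257 CPM with DMSO and 309, 296 and 303 CPM with SHP1705 (0.25 ± 0.03, adjusted p = 0.000138). KDM3A (0.23 ± 0.05), INSIG2 (0.21 ± 0.06), BNIP3L (0.11 ± 0.03) and the hexokinase HK1 (0.10 ± 0.03) completed the rises.

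Of the falls at 8 h, ANGPTL4, a secreted inhibitor of lipoprotein lipase, was at 15.3, 14.2 and 17.1 CPM with DMSO and 10.9, 11.1 and 10.3 CPM with SHP1705 (-0.53 ± 0.08, adjusted p = 0.000472). SLC16A3 at chr17:82217934-82240086 went from 668, 663 and 674 to 577, 635 and 597 CPM (-0.15 ± 0.03). ADM, the vasodilator peptide adrenomedullin, was at 33.8, 30.9 and 31.1 CPM with DMSO and 28.4, 27.2 and 29.3 CPM with SHP1705 (-0.18 ± 0.05), and ENO1 changed by only -0.07 ± 0.02. The calls of BNIP3L and ENO1 were lost on leaving out any 1 of the 6 libraries. That of HK1 was lost without DMSO library 1 or 2 or SHP1705 library 2 or 3, that of ADM without DMSO library 1 or 2 or SHP1705 library 1 or 2, and that of INSIG2 on leaving out any 1 library except DMSO library 1. The 14 calls became 9 without DMSO library 2 and 9 without SHP1705 library 2, and 10 or 11 without each of the other 4 libraries. Without those 4 libraries, which leaves 1 SHP1705 library whose spread is assumed to be that of the other groups, 5 of the 14 calls remained, namely VEGFA, DDIT4, HIF1A and PFKFB4 (higher) and SLC16A3 (lower), and 150 genes were called in all. CA9 was at 17.5, 19.99 and 17.03 CPM with DMSO and 17.9, 18.6 and 19.7 CPM with SHP1705 at 8 h (0.05 ± 0.07), and BNIP3 at 182, 188 and 183 CPM and then 198, 194 and 194 CPM (0.08 ± 0.03); neither passed. NDRG1 (0.05 ± 0.03), P4HA1 (0.07 ± 0.04) and PGK1 (0.00 ± 0.03) did not pass at 8 h either. ANKRD37, at a level near 2 CPM, gave 0.48 ± 0.22 (adjusted p = 0.215), with 1.27, 1.63 and 1.71 CPM with DMSO and 2.26, 2.05 and 2.12 CPM with SHP1705.

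The difference between the SHP1705 effects at 24 h and at 8 h was tested in 1 fit of all 36 libraries. In that fit 0 of 40 members passed, 10 had an unadjusted p under 0.05, and 0.023% of 17389 genes were called; DESeq2 called 2 members, CA9 among them. Without the carfilzomib set at 8 h, a fit added after the data were seen, 9 members had a larger effect at 24 h among 214 genes called: CA9 (0.77 ± 0.12), BNIP3 (0.33 ± 0.06), P4HA1 (0.33 ± 0.06), BNIP3L (0.32 ± 0.08), PGK1 (0.29 ± 0.05), TPI1 (0.24 ± 0.04), NDRG1 (0.24 ± 0.05), ENO1 (0.23 ± 0.04) and PGAM1 (0.16 ± 0.04). VEGFA gave -0.04 ± 0.06 and DDIT4 -0.02 ± 0.08 in that fit, for the 24 h effect minus the 8 h effect. The share of all genes called in that fit is not given, so the count of 9 members is not set against it. Time and set go together here, so their parts cannot be told apart.

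MG132 alone at 8 h gave 0 calls among 40 members and among all 16591 genes (0%) in edgeR's test. At an unadjusted p under 0.05 there were 6 members and 1574 genes, and DESeq2 called 1 member and 95 genes. Log2 fold changes of the members ran from -0.33 to 0.25. MG132 libraries 1 and 3 had 1337 and 6972 POSTN counts and library 2 had 6. SLC2A1 was at 685, 674 and 664 CPM with MG132, VEGFA at 93.9, 90.8 and 91.8 CPM and LDHA at 2382, 2458 and 2452 CPM. For HIF1A the values were 268, 268 and 263 CPM (0.06 ± 0.03, adjusted p = 0.603). HSPA1A, the inducible HSP70 gene, had a mean of 586.5 CPM with DMSO and 715.68 CPM with MG132 alone (0.288 ± 0.105, adjusted p = 0.377). The co-chaperone gene DNAJB1 (0.041 ± 0.036) and the proteasome subunit gene PSMB5 (-0.057 ± 0.041) were not called either. How far MG132 alone blocked the proteasome was not tested.

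SHP1705 with MG132 for 8 h changed 30 of 40 members against DMSO, 13 higher and 17 lower, where 58.8% of all genes were called. Most genes of the transcriptome were thus called with them. P4HA2 at chr5:132190147-132227853, a collagen prolyl hydroxylase subunit, rose most, from 79.7, 80.4 and 82.2 CPM with DMSO to 190.5, 186 and 190.5 CPM in the combination (1.23 ± 0.04, adjusted p = 6.95e-16). With MG132 alone it stood at 78.3, 84.3 and 82.05 CPM. ADM went from 33.8, 30.9 and 31.1 to 65.5, 65.7 and 68.5 CPM (1.06 ± 0.05), with 31.4, 29.6 and 31.3 CPM under MG132 alone. DDIT4 reached 242, 222 and 209 CPM (0.79 ± 0.05). In these 3 genes the combination lay above all other groups of the set. Further rises were SLC2A3 at chr12:7919230-7936187, with 27.9, 28 and 29.9 CPM with DMSO and 42.3, 44.3 and 41.1 CPM in the combination (0.57 ± 0.05), PGK1 (0.31 ± 0.03), HK1 (0.30 ± 0.03) and EGLN3 (0.30 ± 0.07). HIF1A was at 302, 314 and 325 CPM (0.29 ± 0.03), and NDRG1 at 223, 221 and 214 CPM against 190.3, 199 and 194 CPM with DMSO (0.17 ± 0.03). Outside the list, HSPA1A went from a mean of 586.5 CPM with DMSO to 39749 CPM in the combination. DNAJB1 went from 255.74 to 3705.4 CPM and PSMB5 from 104.68 to 159.44 CPM. With SHP1705 alone HSPA1A had a mean of 646.69 CPM. The part of these rises in the changes of the members was not tested.

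Several transport genes and other HIF targets went the other way in the MG132 combination. SLC16A3, which exports lactate, was at 334, 339 and 321 CPM in the combination (-1.01 ± 0.03, adjusted p = 1.04e-15), below every library of the other 3 groups. SLC2A1 was at 403, 407 and 419 CPM (-0.76 ± 0.03, adjusted p = 3.09e-15), also below all of them. ANGPTL4 fell furthest, to 4.34, 4.46 and 4.27 CPM (-1.83 ± 0.09), from 12.7, 11.4 and 12.9 CPM under MG132 alone. CA12, the second membrane carbonic anhydrase of the list, went from 35.3, 39.9 and 38.6 to 22.8, 22.4 and 21.5 CPM (-0.77 ± 0.05). LDHA was at 2522, 2530.4 and 2462 CPM with DMSO and 1805, 1882 and 1799 CPM in the combination (-0.45 ± 0.02), and HK2 at 117, 112 and 112 CPM and then 85.2, 84.8 and 85.5 CPM (-0.42 ± 0.03). The oxygen sensor EGLN1 changed by -0.49 ± 0.04, CA9 by -0.28 ± 0.07 and PFKFB4 by -0.37 ± 0.10, with 10.4, 9.27 and 9.68 CPM. PGAM1, PKM, GAPDH, ENO1, TPI1, BNIP3 and PDK1 were called with changes between -0.21 and -0.08. The PDK1 call was lost without combination library 1 or 3 or DMSO library 1 or 3, with 37.8, 33.99 and 35.9 CPM with DMSO and 32.7, 33.8 and 32.9 CPM in the combination. VEGFA (0.07 ± 0.04), ENO2 (0.03 ± 0.04), ALDOC (-0.27 ± 0.14) and PFKFB3 (0.03 ± 0.04) did not pass. Calls lost without single libraries were ANKRD37 (-0.78 ± 0.25; 0.991, 1 and 0.692 CPM), lost without combination library 3, BNIP3, lost without combination library 1 or DMSO library 2, and KDM3A (0.12 ± 0.05), lost without combination library 1 or 3 or DMSO library 1 or 3. MG132 library 3 had 6972 POSTN counts, inside the range of the combination libraries. SLC2A1, SLC16A3 and ANGPTL4 stood in it at 664, 625 and 12.9 CPM, and P4HA2, ADM and DDIT4 at 82.05, 31.3 and 134 CPM.

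**Figure D2:**
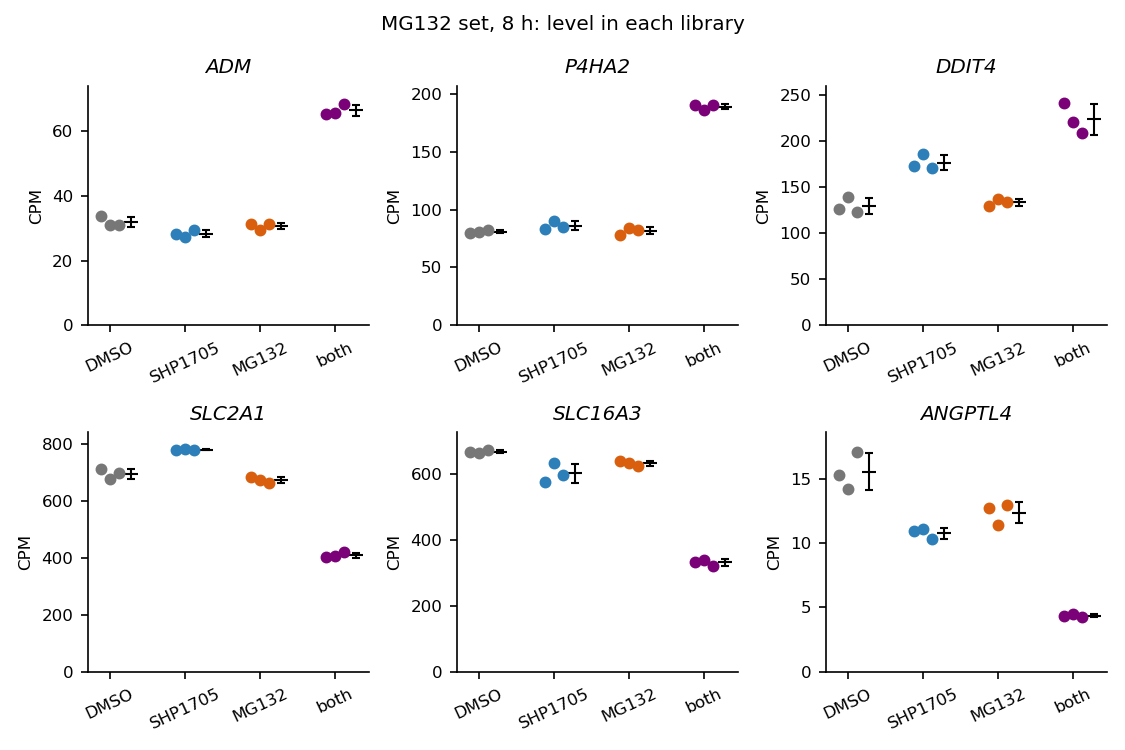
Levels in CPM of 6 members in each library of the MG132 set at 8 h; points are libraries, ticks the means and bars 1 SD (n = 3), on linear axes from 0. ADM, P4HA2 and DDIT4 were highest and SLC2A1, SLC16A3 and ANGPTL4 lowest in the combination (both), and MG132 alone lay near DMSO.

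Against MG132 alone, adding SHP1705 raised 12 and lowered 15 of 40 members, where 57.2% of all genes were called. Called changes included P4HA2 (1.21 ± 0.04), ADM (1.11 ± 0.05), ANGPTL4 (-1.51 ± 0.09), SLC16A3 (-0.93 ± 0.03), DDIT4 (0.74 ± 0.05), CA12 (-0.73 ± 0.05) and SLC2A1 (-0.72 ± 0.03). The interaction, which asks whether SHP1705 acted differently with MG132 than without it, passed for 21 of 40 members (7 higher, 14 lower) beside 48.9% of all genes. ADM had the largest positive term, 1.29 ± 0.07, where SHP1705 alone gave -0.18 ± 0.05. SLC2A1 had -0.88 ± 0.04 (adjusted p = 1.57e-13), PFKFB4 -1.08 ± 0.13 and VEGFA -0.34 ± 0.05, all 3 genes that rose with SHP1705 alone. For HIF1A the interaction was -0.01 ± 0.05, with an adjusted p of 0.881.

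Carfilzomib alone for 24 h raised 3 and lowered 12 of 39 members, against 10.1% and 11.4% of all genes (21.5% called in all). The 3 that rose were enzymes of the upper steps: the hexokinase HK1 from 261, 256 and 262 to 319, 309 and 303 CPM (0.26 ± 0.04), the phosphofructokinase PFKM (0.29 ± 0.06) and the isomerase GPI (0.20 ± 0.04). PFKL, the liver-type phosphofructokinase, moved against PFKM, from 305, 309.6 and 315 to 225, 239 and 204 CPM (-0.48 ± 0.05, adjusted p = 2.31e-07). Among transport and flux genes, 4 of 6 fell. SLC2A1 was at 783, 840.4 and 709 CPM (-0.31 ± 0.05), SLC16A3 gave -0.42 ± 0.07, PFKFB4 was at 26.1, 25.5 and 25.8 CPM (-0.29 ± 0.07) and PFKFB3 at 81.1, 78.9 and 79 CPM (-0.18 ± 0.05). The carfilzomib libraries of SLC2A1 and PFKFB4 all lay below the DMSO libraries. VEGFA was at 215, 229 and 217 CPM (-0.35 ± 0.05, adjusted p = 7.28e-06). CA12 went from 27.4, 29.7 and 29.01 to 21.8, 17.6 and 19.3 CPM (-0.56 ± 0.09), and CA9 was at 10.2, 12.1 and 14.4 CPM (-0.39 ± 0.11), a call lost without carfilzomib library 1. HK2 was at 123, 118 and 115 CPM (-0.19 ± 0.06), lost without DMSO library 1 or 2. The PFKFB3 call was lost without DMSO library 1, and ENO1 (-0.10 ± 0.04) lost its call without any DMSO library or carfilzomib library 3. EGLN1 (-0.21 ± 0.06) and PGAM1 (-0.14 ± 0.04) were the other calls. HIF1A was at 135, 134 and 159 CPM (0.03 ± 0.06, adjusted p = 0.811), BNIP3 at 136, 139 and 150.2 CPM and NDRG1 at 499, 526 and 495 CPM, neither of these 2 called. ADM at 37.3, 32.8 and 34.2 CPM, against 31.6, 28.8 and 30.1 CPM with DMSO, missed the threshold (0.20 ± 0.08, adjusted p = 0.0686) and passed without carfilzomib library 2.

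SHP1705 with carfilzomib for 24 h raised 8 and lowered 8 of 39 members against DMSO, where 27.3% of all genes were called. PFKL was at 213, 212 and 212 CPM (-0.55 ± 0.05), and the other phosphofructokinase gene called, PFKM, at 92.8, 101 and 96.3 CPM against 71, 71.5 and 65.98 CPM with DMSO (0.48 ± 0.06). HK1 (0.33 ± 0.04) and GPI (0.27 ± 0.04) rose, and HK2 fell to 103, 108 and 108 CPM (-0.34 ± 0.06). LDHA was at 1547, 1586 and 1645 CPM, below all 9 libraries of the other groups (-0.40 ± 0.04, adjusted p = 1.61e-07). DDIT4 was at 377, 379 and 392 CPM, above them all (0.57 ± 0.05). ADM was at 50.98, 43.6 and 42.5 CPM (0.60 ± 0.08, adjusted p = 2.73e-06). SLC2A3 (0.34 ± 0.06), P4HA2 (0.29 ± 0.06) and EGLN3 (0.29 ± 0.08) also rose, the last lost without combination library 3. CA12 (-0.67 ± 0.09), SLC16A3 (-0.35 ± 0.07), PGAM1 (-0.21 ± 0.04), MXI1, a MYC antagonist (-0.31 ± 0.09), and CA9 (-0.37 ± 0.11) fell. The CA9 call was lost without combination library 1 and that of MXI1 without DMSO library 1 or 2. VEGFA at 298, 292 and 282 CPM and SLC2A1 at 919, 958 and 899.7 CPM did not pass (0.05 ± 0.05 and -0.06 ± 0.05).

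Against carfilzomib alone, adding SHP1705 raised 10 and lowered 1 of 39 members, where 9.02% of all genes were called. DDIT4 (0.60 ± 0.05), PFKFB4 (0.43 ± 0.07), VEGFA (0.40 ± 0.05), ADM (0.40 ± 0.08), SLC2A3 (0.35 ± 0.06), P4HA2 (0.33 ± 0.05) and SLC2A1 (0.25 ± 0.05) rose, and LDHA fell (-0.34 ± 0.04). PFKFB4 was at 33.4, 35.96 and 35.1 CPM in the combination, and P4HA2 at 107, 106 and 107 CPM against 79.02, 87.4 and 88.7 CPM under carfilzomib. The calls of ANGPTL4 (0.42 ± 0.13), EGLN3 (0.27 ± 0.08) and PFKM (0.19 ± 0.06) were lost on leaving out some single libraries: for ANGPTL4 any combination library or carfilzomib library 1 or 2, for EGLN3 combination library 2 or 3 or carfilzomib library 1, and for PFKM combination library 2 or 3 or carfilzomib library 3.

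The interaction of SHP1705 and carfilzomib at 24 h passed for 6 of 39 members, all negative, while 78 genes (0.482%) passed in all. They were CA9 (-0.80 ± 0.15, adjusted p = 0.0151), BNIP3 (-0.45 ± 0.08, 0.00692), P4HA1 (-0.44 ± 0.07, 0.00332), LDHA (-0.39 ± 0.06, 0.00218), NDRG1 (-0.37 ± 0.06, 0.00218) and PGK1 (-0.28 ± 0.05, 0.0171). For CA9, SHP1705 gave 0.82 ± 0.10 without carfilzomib and 0.02 ± 0.11 with it, where the carfilzomib libraries held 10.2, 12.1 and 14.4 CPM and the combination libraries 11.3, 12.9 and 13 CPM. BNIP3 was at 142, 131 and 142 CPM in the combination and NDRG1 at 476, 480.3 and 488 CPM, both inside or below the range with carfilzomib alone. P4HA1 was at 97.96, 106 and 103 CPM under carfilzomib and 95.6, 100.4 and 103 CPM in the combination, and PGK1 at 1005, 987 and 1054 CPM and then 1027, 999 and 1043 CPM. DDIT4 (0.17 ± 0.07), VEGFA (0.06 ± 0.07) and PFKFB4 (-0.12 ± 0.09) did not pass. The call of CA9 was lost without combination library 1, DMSO library 2 or SHP1705 library 2. That of PGK1 was lost without combination library 1 or 2, DMSO library 1 or 2 or SHP1705 library 2 or 3. The count ran from 4 to 11 over the 12 fits without 1 library, 11 without carfilzomib library 2, and DESeq2 called 9, of which 5 were among the 6.

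**Figure D3:**
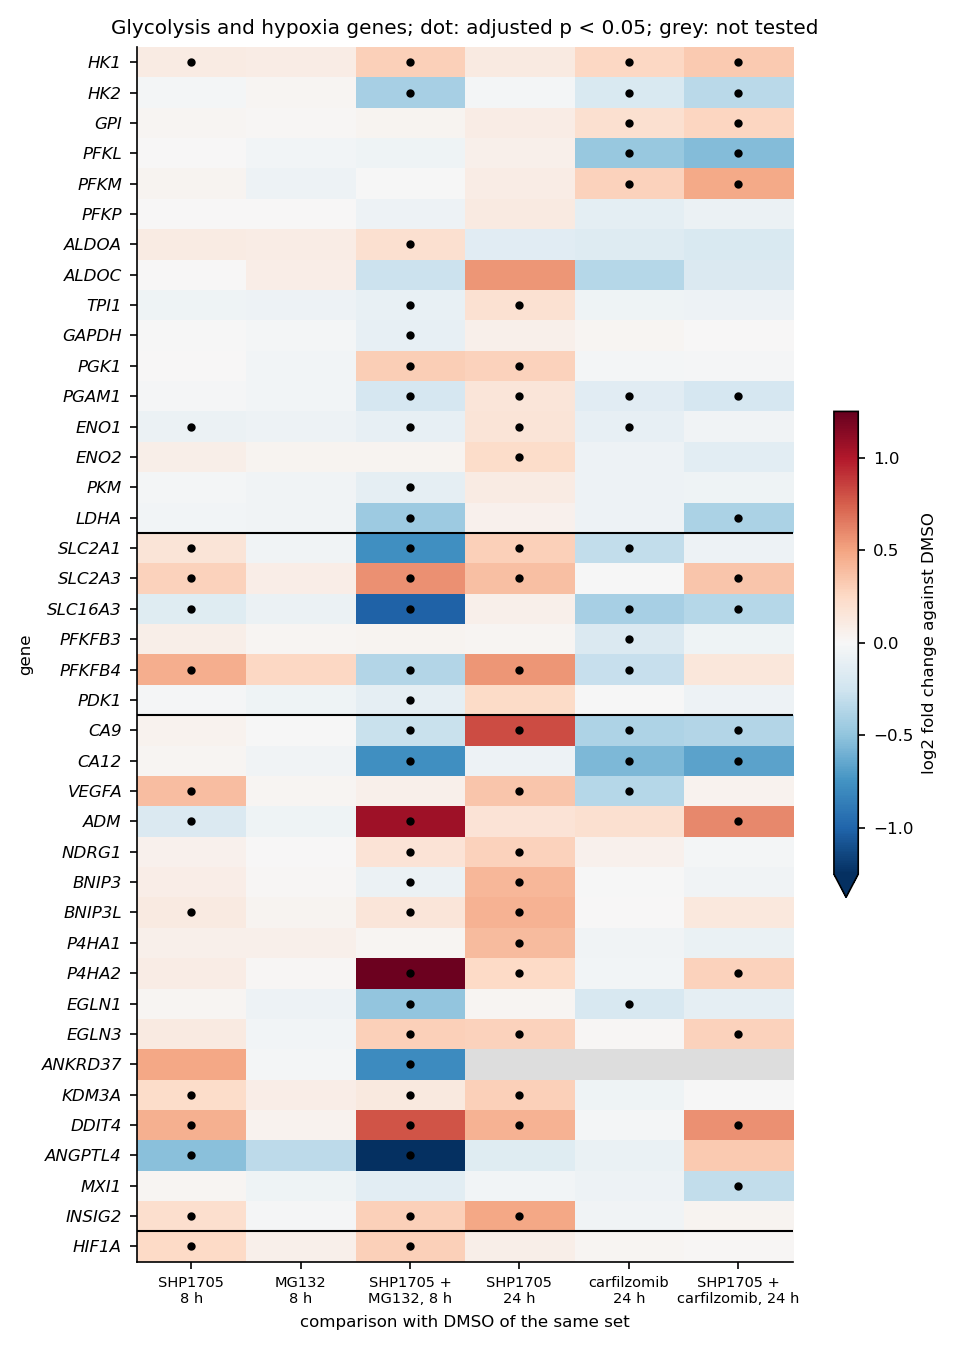
Log2 fold change against the DMSO group of the same set for the 40 genes in 6 comparisons (columns); red is higher, blue lower, a dot marks an adjusted p under 0.05 and grey a gene not tested. Lines part glycolytic enzymes, transport and flux genes, other HIF targets and HIF1A. ADM and P4HA2 are the darkest red and ANGPTL4 the darkest blue in the column of SHP1705 with MG132, and CA9 is the darkest red in the column of SHP1705 at 24 h.

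In the carfilzomib set at 8 h the libraries go against their labels, so its values are given by library and no direction is drawn from them. HSPA1A, the inducible HSP70 gene that rises when the proteasome is blocked, was at 14559, 23605 and 23242 CPM in the libraries labelled DMSO, 19856, 705 and 693 labelled SHP1705, 792, 726 and 896 labelled carfilzomib and 892, 12019.5 and 15052 labelled as the combination. PER3 was at 8.19, 2.06 and 1.55, then 2.25, 9.62 and 7.91, then 6.78, 1.26 and 1.69, then 1.92, 7.69 and 8.20 CPM in the same order of labels. PER3 thus differed several-fold within every label, and HSPA1A within the labels SHP1705 and combination. DDIT4 was at 69.5, 87.4 and 81.4 CPM labelled DMSO, 72.2, 138 and 132 labelled SHP1705, 157, 221 and 207 labelled carfilzomib and 221, 72.7 and 71.5 labelled as the combination. VEGFA was at 126, 106 and 102 CPM under the label DMSO, then 101, 217 and 203 under SHP1705, then 201, 285 and 287 under carfilzomib, and then 279, 129 and 126 under the combination. For SLC2A1 the 4 labels held, in that order, 551, 394 and 403, then 405, 703 and 704, then 673, 912 and 875, and then 863, 555 and 583 CPM. For P4HA2 they held 103, 153 and 149.8, then 132, 72.2 and 68.97, then 70.2, 69.7 and 58.5, and then 66.8, 96.3 and 103 CPM. In each of these 4 genes library 1 stood apart from libraries 2 and 3 within the label SHP1705 and within that of the combination. By the labels, 0 of 39 members were called for SHP1705 (0% of all genes; 4 members and 2244 genes at an unadjusted p under 0.05) and 0 for the combination (0%; 4 members and 1454 genes). DESeq2 called 0 members in both. For carfilzomib by the labels 12 of 39 were called (6 higher, 6 lower; 23% of all 15577 genes), and 0 to 11 over the fits without 1 library. Leaving out the library labelled SHP1705 replicate 1 brought 11 member calls for SHP1705. That count is given without the share of all genes called in the same fit, so nothing about the members is read from it.

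**Figure D4:**
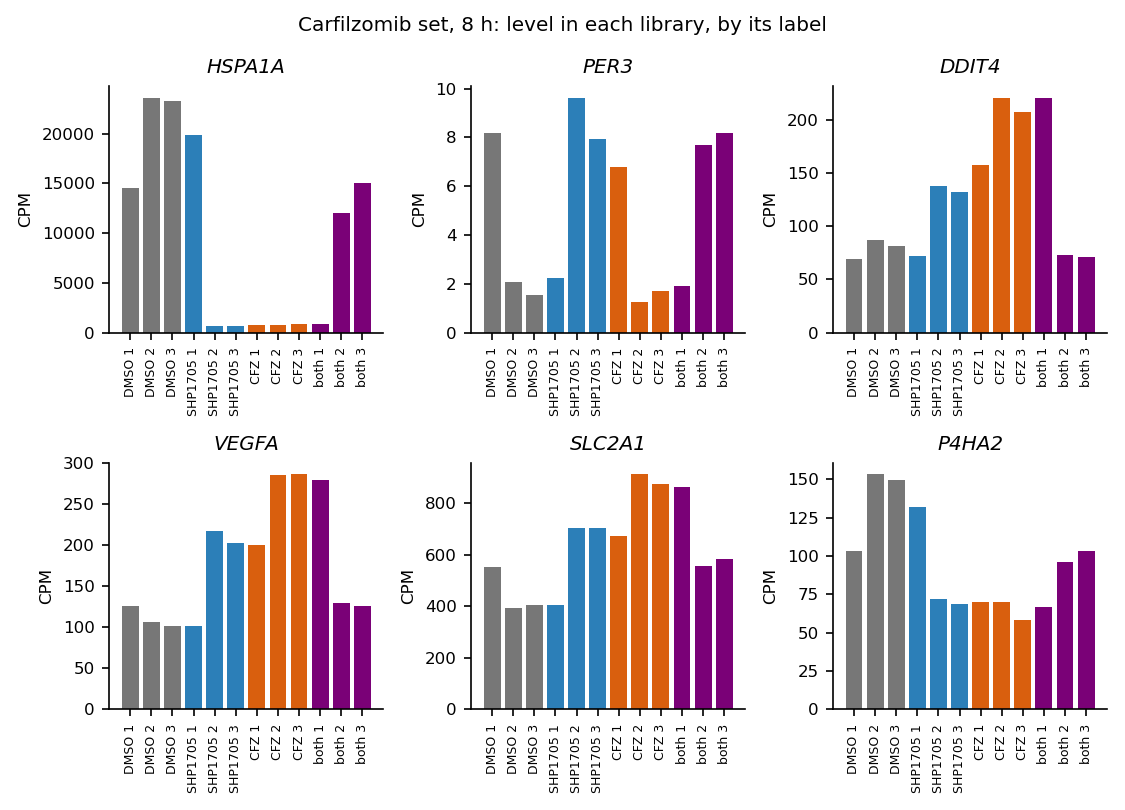
Levels in CPM of 2 readouts of the drugs (HSPA1A, PER3) and 4 members in each of the 12 libraries of the carfilzomib set at 8 h, named by label; bars are single libraries, from 0, without error bars. Libraries differ several-fold in HSPA1A within the labels SHP1705 and both, where the members differ too.

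Glycolytic enzymes and other HIF targets were set side by side by their counts and medians, without a test. With SHP1705 at 24 h the median log2 fold change was 0.107 over 16 enzymes, 0.296 over 16 other HIF targets and 0.269 over 6 transport and flux genes, beside 0.000 over all 16183 genes. In the same comparison 14 of 16 enzymes and 13 of 16 other targets had a positive value, so both lists leaned up and the other targets further. At 8 h SHP1705 gave a median of 0.000 for the enzymes, with a range of only -0.07 to 0.10, and of 0.081 for the other targets, with a range of -0.53 to 0.48. In the MG132 combination the enzymes had a median of -0.074 (3 higher, 7 lower) and the other targets 0.068 (8 higher, 6 lower), spread from -1.83 to 1.23. Carfilzomib alone at 24 h gave -0.065 and -0.043. Its combination gave -0.068 for the enzymes (3 higher, 4 lower) and 0.013 for the other targets (4 higher, 3 lower). The median of the enzymes minus that of the other targets was -0.189 with SHP1705 at 24 h, -0.081 at 8 h and -0.141 in the MG132 combination. Leaving out 1 library at a time kept the 24 h value between -0.211 and -0.176. The comparisons within a set share their DMSO libraries.

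**Figure D5:**
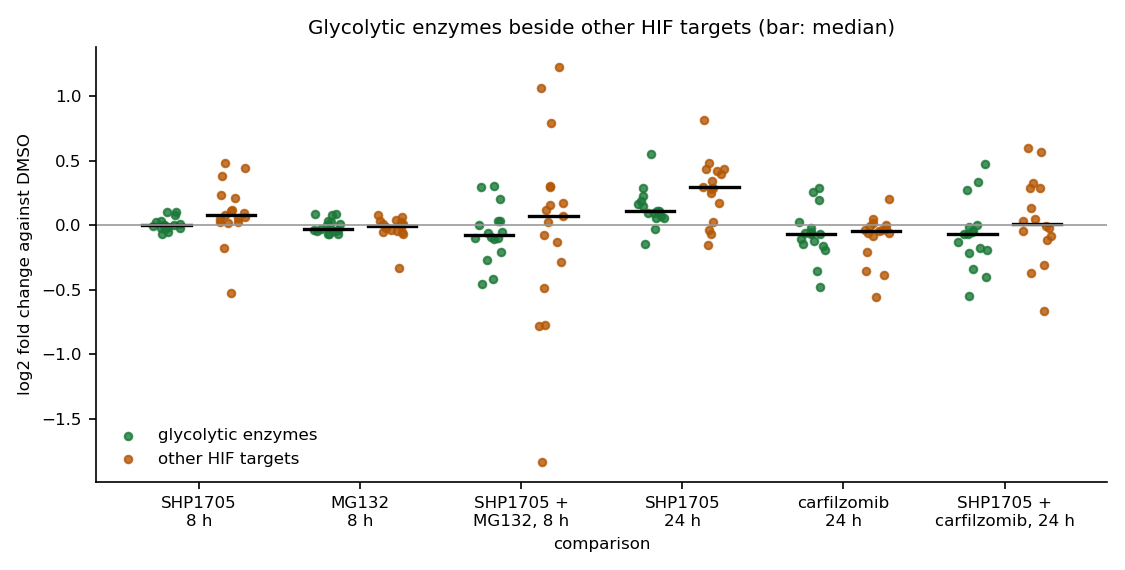
Log2 fold change against DMSO for each glycolytic enzyme (green) and each other HIF target (orange) in 6 comparisons; points are genes, shifted sideways for clarity, and bars are medians. The other HIF targets spread more widely than the enzymes in the MG132 combination, and their median was 0.296 against 0.107 with SHP1705 at 24 h.

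Counting limits touch some members. ALDOA, whose enzyme is abundant in most cells, was at only 28.1, 29.5 and 27.9 CPM with DMSO in the MG132 set and 4.47, 4.12 and 4.27 CPM in the carfilzomib set at 24 h. The RefSeq gene LOC112694756 overlaps it over 6136 bases and is also a row of the tables, so the ALDOA values, calls included, are uncertain. The RefSeq spans of BNIP3, PFKFB4, SLC16A3, P4HA2, ANKRD37 and HIF1A overlap other counted genes (among them PPP2R2D, UCN2, CSNK1D, P4HA2-AS1, UFSP2 and HIF1A-AS3). So do those of further members, among them PFKM (SENP1), EGLN1 (LOC107985360), MXI1 (LOC105378480), PFKFB3 (SDCBPP1) and SLC2A1 (ATP6V0CP4). Whether counting used strand is not stated in the sources used here, and reads of such partners cannot be told apart. GAPDH, PGK1, PGAM1, TPI1, ENO1 and LDHA have processed pseudogenes elsewhere in the genome, and how reads with several matches were counted is not given.

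Other genes of the same pathways were counted from 3 further lists. Of 27 further HIF targets tested, 10 rose and 4 fell with SHP1705 at 24 h, with a median of 0.182, beside 4.46% of all genes called. FAM162A, a mitochondrial protein gene (0.44 ± 0.07), TMEM45A (0.78 ± 0.14) and WSB1, part of a ubiquitin ligase (0.33 ± 0.06), had the lowest p-values among the rises. Among the falls were the clock-linked repressor BHLHE40 (-0.53 ± 0.06) and the glycogen branching enzyme GBE1, from 112, 114 and 115 to 78.2, 77.01 and 86 CPM (-0.50 ± 0.06). GBE1 also fell at 8 h (-0.19 ± 0.03), where 3 of 27 rose and 4 fell (7.53% of all genes called). In the MG132 combination 11 rose and 11 fell, where 58.8% of all genes were called. The collagen lysyl hydroxylase PLOD2 went from 126, 119 and 119 to 335, 323 and 327 CPM (1.44 ± 0.03) and ZNF395 from 93.5, 93.9 and 95.3 to 37.6, 43.1 and 37.4 CPM (-1.26 ± 0.05). With carfilzomib 3 rose and 7 fell, and in its combination 4 rose and 9 fell, beside 21.5% and 27.3% of all genes called.

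A further list held glycolysis genes and genes of neighbouring steps, those of pyruvate dehydrogenase among them. Of its 30 genes tested, 2 rose and 3 fell with SHP1705 at 24 h, with a median of -0.020, beside 4.46% of all genes called. PDP1, the phosphatase that activates pyruvate dehydrogenase (0.25 ± 0.06), and the phosphoglucomutase PGM1 (0.20 ± 0.05) rose. The pyruvate dehydrogenase subunit genes PDHB (-0.29 ± 0.05) and PDHA1 (-0.21 ± 0.05) fell, with PGAM5 (-0.31 ± 0.07), a mitochondrial phosphatase. HKDC1, a hexokinase-like gene, was at 7.77, 7.12 and 7.05 CPM with DMSO and 28.3, 28.8 and 28.8 CPM in the MG132 combination (1.97 ± 0.09), where 5 of 29 rose and 16 fell beside 58.8% of all genes called, and it rose with carfilzomib too (0.68 ± 0.11). The lactate transporter gene SLC16A1 was called in the MG132 combination (2.63 ± 0.45) at 3.01, 4.78 and 5.38 CPM, against 0.738, 0.552 and 0.829 CPM with DMSO. With MG132 alone it was at 0.679, 0.910 and 3.60 CPM, highest in library 3, the MG132 library with the most POSTN (33.6, 0.161 and 173 CPM). The part of that library's POSTN signal in this value was not tested.

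In the HIF machinery, 0 of 13 genes tested passed with SHP1705 at 24 h, where 2 had an unadjusted p under 0.05 and 4.46% of all genes were called. At 8 h, beside 7.53% of all genes, CITED2, which competes with HIF for its coactivators, rose (0.16 ± 0.04), and the ubiquitin ligase genes ELOB (-0.19 ± 0.05) and RBX1 (-0.22 ± 0.06) fell. In the MG132 combination EPAS1, the alpha subunit HIF2A, rose (0.43 ± 0.04) and ARNT2, a relative of ARNT, fell from 35.7, 35.7 and 35.1 to 18.7, 18.3 and 19.2 CPM (-0.92 ± 0.05), among 5 rises and 3 falls of 12 genes tested, beside 58.8% of all genes called. CITED2 fell there (-0.49 ± 0.04) and rose at 24 h with carfilzomib (0.24 ± 0.06) and more in its combination (0.69 ± 0.06), with 195, 174 and 178 CPM with DMSO, 216, 228 and 199.8 CPM with carfilzomib and 294, 304 and 282 CPM with both drugs.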

How the data were processed

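The 36 polyA RNA-seq libraries came as 3 tables of raw counts, whole numbers per gene that the authors deposited without normalization, as the values show. Per the submitters' processing notes, Trimmomatic, FastQC, HISAT2 and featureCounts were used on hg38; for their versions, the annotation and the strand setting, nothing is given in the sources used here. Columns were joined to samples by the treatment and replicate in their names, and 0 were unused.

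Groups were taken from the labels. Within a table, 12 libraries entered 1 fit of 4 groups. Genes were kept by filterByExpr, libraries scaled by TMM, and contrasts tested over all kept genes with edgeR 4.0.16 (limma 3.58.1, R 4.3.3, prior count 0.125). An adjusted p under 0.05 was a call. SE is the log2 fold change over the square root of F. Only within-table contrasts were compared across tables. The method was tested on simulated counts. The members, lists and named genes were chosen with earlier results of these data known. Any of the 40 members may be named; values in every library are given for 16 of them fixed by name and for the up to 6 called members of lowest p in each direction, and of each further list up to 3 genes. Positions and promoter windows come from RefSeq, GRCh38.p14, by symbol. No 2 libraries of a group were identical. Replicate numbers did not pair libraries. As alternatives, fits were made with relative log expression factors, with no filter, with DESeq2 1.42.0, with the replicate block, on 2 groups alone and without each library in turn; 2 more were added after the data were seen. Figures used matplotlib 3.10.9 in Python 3.11.15.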

Additional observations from a re-analysis of the deposited data

Results flagged for a closer look

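The effect of SHP1705 against DMSO differed between 24 h (carfilzomib set) and 8 h (MG132 set) for 9 members in the fit without the carfilzomib set at 8 h, which was added after the data were seen. A test of the difference itself picked them out, and all 9 values are the 24 h effect minus the 8 h effect on the log2 scale: CA9 (0.77 ± 0.12), BNIP3 (0.33 ± 0.06), P4HA1 (0.33 ± 0.06), BNIP3L (0.32 ± 0.08), PGK1 (0.29 ± 0.05), TPI1 (0.24 ± 0.04), NDRG1 (0.24 ± 0.05), ENO1 (0.23 ± 0.04) and PGAM1 (0.16 ± 0.04). CA9 is a carbonic anhydrase, BNIP3 and BNIP3L are mitophagy receptors, P4HA1 is a collagen prolyl hydroxylase subunit, and PGK1, TPI1, ENO1 and PGAM1 are glycolytic enzymes. The count of 9 stands without the share of all genes called in the same fit, so nothing about the members as a list is read from it. With all 36 libraries in the fit, 0 of 40 members passed. Set and time cannot be told apart.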

How the results depend on the processing

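Among the 3840 refits of named member values, no value called in the main fit or the refit changed direction. Of these refits, 3551 kept their side of the threshold, 253 lost a call and 36 gained one. A change of sign in a value called in neither fit was not counted. Replicate numbers do not pair the libraries (correlations of same-numbered libraries ran from -0.157 to 0.142 with MG132, and with carfilzomib from -0.083 to 0.111 at 24 h and from -0.819 to 0.413 at 8 h). With the replicate block, 13 members were called for SHP1705 at 8 h, and 0 in place of 12 for carfilzomib at 8 h by the labels. Without a filter on low counts, 1 member was called for MG132 alone, 10 for the interaction at 24 h (median difference between the lists 0.100), 7 for SHP1705 and 8 for the combination in the carfilzomib set at 8 h, and 1 for SHP1705 at 24 h against 8 h. With DESeq2 the counts were 1 for MG132 alone and 2 for 24 h against 8 h, and the median difference in the interaction at 24 h was 0.100. A fit of only the groups compared gave 20 for carfilzomib at 8 h. Without SHP1705 libraries 2 and 3 and MG132 libraries 1 and 3, high in POSTN, SHP1705 at 8 h gave 5 members and a median difference of -0.111, and without the carfilzomib set at 8 h the comparison of 24 h with 8 h gave 9. The cause of these changes was not tested. The member counts of the refits in this section stand without the share of all genes called in each. They show only how the counts depend on the processing. Leaving out 1 library at a time gave 9 to 11 for SHP1705 at 8 h and 15 to 19 at 24 h, 27 to 31 for the combination with MG132, 12 to 17 for carfilzomib and 15 to 17 for its combination at 24 h, and 4 to 11 for the interaction at 24 h, with a median difference of -0.026 to 0.089. In the MG132 interaction the median difference ran from 0.043 to 0.146. By the labels of the carfilzomib set at 8 h, SHP1705 gave 0 to 11 members with a median difference of -0.182 to -0.045, and carfilzomib 0 to 11. Depth limits ANKRD37, at 23 to 93 counts a library in the MG132 set and too low to test at 24 h, ALDOC, at 100 to 286 counts over the MG132 set and the carfilzomib set at 24 h, and ALDOA at 24 h, at 80 to 141 counts.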
